A study of Mus musculus with 3 samples.

Results

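The genes described here encode 9 proteins of the striated muscle sarcomere: titin (Ttn), the Z-disc proteins alpha-actinin 2 (Actn2), LIM domain binding 3 (Ldb3), muscle LIM protein (Csrp3), telethonin (Tcap), myozenin 2 (Myoz2) and nebulette (Nebl), the thick filament protein cardiac myosin-binding protein C (Mybpc3) and the M-band protein myomesin 1 (Myom1). They were chosen by name, with earlier results of these data known. The accessions of 14 non-control probes map to one of the 9 symbols, of 39429 probes that stand for 32176 gene names or unmatched accessions. The Z-disc borders the sarcomere and anchors the thin filaments through alpha-actinin, and the M-band cross-links the thick filaments at its centre. Titin runs from the Z-disc to the M-band as a molecular spring and is laid down early when cardiac muscle cells build their myofibrils.

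Hopx-/- embryoid bodies (null) were compared with Hopx+/- embryoid bodies (heterozygous) at day 8 of cardiac differentiation, in 3 biological replicates. Each replicate was a 2-colour Agilent array on which both genotypes were hybridised together. Hopx encodes a small homeodomain protein of heart and progenitor cells, the heterozygous cultures also carry an inactivated allele, and no wild-type culture was analysed here. The stem cells of both genotypes were derived from blastocysts, kept on feeder cells (STO, later inactivated mouse embryonic fibroblasts), and differentiated in hanging drops, in suspension and then on gelatin with VEGF, bFGF, FGF10 and ascorbic acid. Separate lines or differentiations per replicate are not stated: the spread behind the p-values may be technical, and genotype and cell line cannot be told apart. Embryoid bodies mix many cell types, so that fewer cardiac muscle cells and less RNA per such cell cannot be told apart.

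The direction of array 3 is not settled. By its labels every array carried the null RNA in Cy5, but over all probes the Cy5 over Cy3 ratios of array 3 correlated with those of arrays 1 and 2 at r = -0.874 and r = -0.874, while arrays 1 and 2 correlated at r = 0.924 (across probes, which are not independent replicates). In the authors' deposited value table array 3 runs opposite to its scanner ratios, with a slope of -0.947 over bright spots, against 0.945 and 0.952 for arrays 1 and 2. Array 3 was therefore turned as in that table, and every null or heterozygous value of array 3 below rests on this. In null cultures 61.9% to 72.9% of the 43020 non-control spots exceeded background clearly (the scanner software's call, written here as well above background), and in heterozygous cultures 62.3% to 65.7%. Precision is limited by having 3 arrays. Hopx itself gave log2 ratios of null over heterozygous of -2.98, -2.97 and -3.45 on arrays 1 to 3. With the labels of array 3 kept, Hopx would stand at 3.45 there, higher in the null than in the heterozygous culture. A second, dimmer Hopx probe stood at -2.36 and -2.29 on arrays 1 and 2, and at 2.94 on array 3 as labelled.

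Promoter sequences are shown for the 6 genes with a match to either of 2 motifs of muscle transcription factors, the MEF2 site and the CArG box bound by serum response factor. Both are short A/T-rich elements known from the control regions of many muscle genes. RefSeq windows (GRCm38.p6) of 250 bases before to 50 bases after a transcription start were found for 8 of the 9 genes (all but Tcap), 13 windows in all. The 250 bases before the start are printed on the gene's strand, with MEF2 and CArG matches in capitals.
Ttn (chr2:76982548-76982797, minus strand): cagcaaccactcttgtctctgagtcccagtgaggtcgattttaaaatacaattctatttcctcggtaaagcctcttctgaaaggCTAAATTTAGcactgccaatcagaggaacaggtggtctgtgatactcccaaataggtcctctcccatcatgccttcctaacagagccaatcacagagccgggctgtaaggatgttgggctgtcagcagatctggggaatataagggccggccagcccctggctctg
Mybpc3 (chr2:91117894-91118143, plus strand): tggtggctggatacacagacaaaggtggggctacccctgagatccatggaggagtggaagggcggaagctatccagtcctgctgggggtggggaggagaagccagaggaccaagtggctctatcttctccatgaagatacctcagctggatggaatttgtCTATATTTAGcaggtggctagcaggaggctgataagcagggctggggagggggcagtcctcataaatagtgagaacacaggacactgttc
Myoz2 (chr3:123034988-123035237, minus strand): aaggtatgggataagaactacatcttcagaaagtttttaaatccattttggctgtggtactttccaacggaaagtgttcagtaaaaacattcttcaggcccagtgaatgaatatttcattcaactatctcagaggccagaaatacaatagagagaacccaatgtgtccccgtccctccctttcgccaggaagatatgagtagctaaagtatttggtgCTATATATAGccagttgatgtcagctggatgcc
Ldb3 (chr14:34588682-34588931, minus strand): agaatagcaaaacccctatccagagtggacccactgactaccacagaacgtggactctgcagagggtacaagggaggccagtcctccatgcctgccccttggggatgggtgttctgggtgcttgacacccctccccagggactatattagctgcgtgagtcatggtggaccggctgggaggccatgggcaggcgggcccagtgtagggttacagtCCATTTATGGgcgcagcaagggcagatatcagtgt
Myom1 (chr17:71019307-71019556, plus strand): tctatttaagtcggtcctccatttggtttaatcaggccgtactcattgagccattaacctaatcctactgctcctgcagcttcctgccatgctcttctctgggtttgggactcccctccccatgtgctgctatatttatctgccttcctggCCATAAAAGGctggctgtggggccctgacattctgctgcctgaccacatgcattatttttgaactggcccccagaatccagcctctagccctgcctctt
Nebl (chr2:17462857-17463106, minus strand): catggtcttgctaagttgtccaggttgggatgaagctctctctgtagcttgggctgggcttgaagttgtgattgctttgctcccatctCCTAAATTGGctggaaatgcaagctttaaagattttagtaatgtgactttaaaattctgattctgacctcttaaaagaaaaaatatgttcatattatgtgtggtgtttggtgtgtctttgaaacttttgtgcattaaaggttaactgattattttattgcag
A MEF2 match lay in 1 window each of Ttn, Mybpc3 and Myoz2, at bases -166 to -157, -90 to -81 and -33 to -24 from the start. These 3 of 13 windows are 23.1%, against 0.557% of all 32851 windows in the table. A CArG box lay in 4 of 13 windows (30.8%), against 1.63% of all windows. The 4 belong to Ldb3, Myom1 and Nebl, and both Ldb3 windows overlap and share 1 box. Nebl has 4 windows and the box is in 1 of them. All motifs were searched on both strands. The M-CAT element CATTCC was in 2 of 13 windows (15.4%), against 14.7% of all windows. The GATA motif AGATAA was in 3 of 13 (23.1%), against 11.2%. The Nkx motif AAGTG was in 4 of 13 (30.8%), against 46.4%. The E-box CAGCTG was in 2 of 13 (15.4%), against 16.3%, and the TATA box TATAAA in 0 of 13, against 13.6%. A match is a description of the letters only, and no binding was measured. The windows of Actn2 and Csrp3 held neither MEF2 nor CArG letters.

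All 8 members that could be tested were lower in null embryoid bodies, by 2.33-fold to 15.7-fold. The largest fall was that of Mybpc3, and the smallest that of Tcap. Each of the 8 stands with its brightest probe, which was well above background in both genotypes on all 3 arrays, so none entered the test through the heterozygous signal alone. Of all 19803 genes tested, 60.3% were called in either direction and 30.1% were called lower (adjusted p under 0.05 by limma) and 6.03% were called lower by at least 2-fold, whereas 8 of the 8 members were lower by at least 2-fold. All 8 were lower on each of the 3 arrays, as were 37.7% of all genes. The median of the 8 was -2.85 on the log2 scale, against 0.0034 for all genes tested. At least 8-fold lower were 3 of the 8, against 0.197% of all genes. Myoz2 was the exception: its only probe was well above background in neither genotype on any array. Because the members were chosen with earlier results of these data known, the shares in this paragraph are a description only.

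Titin mRNA was among the lowest of all ratios, in place 24 of 19803 from the lowest. The brightest Ttn probe had normalized log2 signals of 6.64, 6.70 and 6.37 in null cultures, against 9.61, 10.14 and 10.10 in heterozygous cultures on arrays 1 to 3. The null and heterozygous signals did not overlap, and array 1 had the lowest heterozygous signal. For Ttn and the members below, the share of all genes without such overlap is not given here. The mean log2 ratio of Ttn was -3.38 (SE 0.13, n = 3, adjusted p = 4.4e-07 by limma), a 10.4-fold lower signal. Its null signals lay within 1 log2 unit of the lowest null signal well above background (5.89, 5.86 and 5.88 on arrays 1 to 3). The size of the fall depended on the processing, with a mean ratio of -4.78 from the scanner software's processed signals.

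Mybpc3, which binds myosin and titin in the A-band and tunes contraction, fell most. Its signals were 8.45, 8.27 and 8.16 in null cultures, against 12.40, 12.11 and 12.30 in heterozygous cultures. It was the member with the least spread in its ratio, at -3.95, -3.84 and -4.14 on the 3 arrays. Its mean of -3.97 (SE 0.09, n = 3, adjusted p = 1.1e-07 by limma) put it in place 12 from the lowest of all genes.

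**Figure D1:**
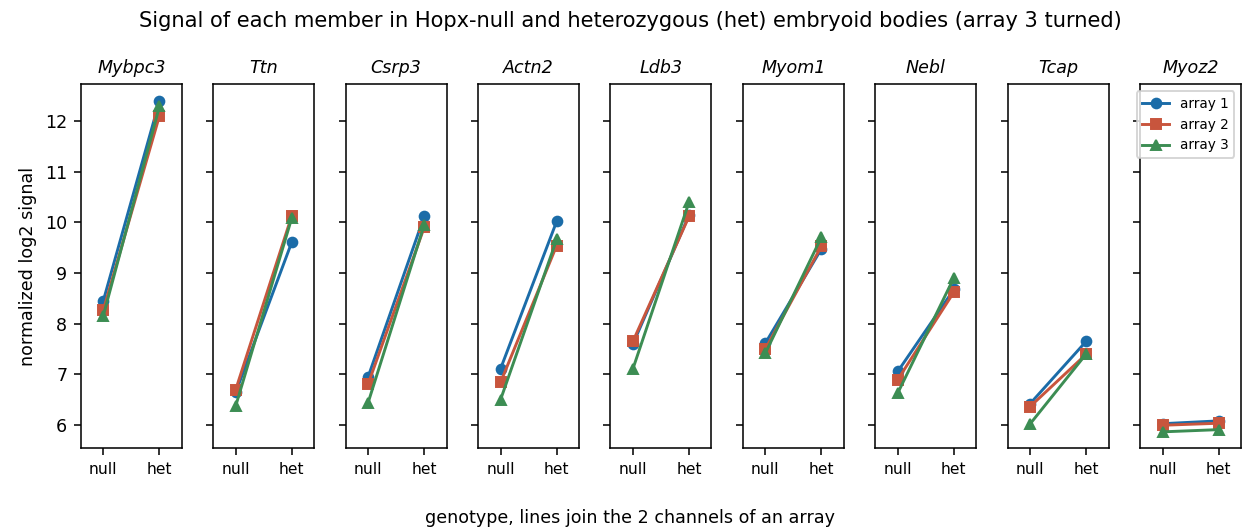
Normalized log2 signal of each member's brightest probe in Hopx-null (left) and heterozygous (right) embryoid bodies, with a line joining the 2 channels of each array (array 3 turned). In 8 panels every null signal lies below every heterozygous signal, while Myoz2 is at background in both. The share of all genes with such a gap is not given here, and levels of different probes are not comparable.

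Among the Z-disc genes the fall was steepest for Csrp3 and Actn2. Csrp3, a LIM protein of the Z-disc linked to stretch sensing, had signals of 6.95, 6.81 and 6.44 in null cultures, against 10.12, 9.90 and 9.96 in heterozygous cultures. It fell by 3.26 (SE 0.10, n = 3, adjusted p = 1.8e-07 by limma), or 9.60-fold. Actn2, which cross-links the actin filaments of neighbouring sarcomeres, had signals of 7.11, 6.84 and 6.50 in null cultures, against 10.02, 9.54 and 9.66 in heterozygous cultures, and a mean log2 ratio of -2.93 (SE 0.10, n = 3, adjusted p = 2.8e-07 by limma). For both genes the genotypes did not overlap, and array 3 had the lowest null signal.

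Ldb3, also called Cypher or ZASP, ties alpha-actinin to signalling proteins. Its brighter probe had signals of 7.60, 7.65 and 7.11 in null cultures, against 10.14, 10.12 and 10.40 in heterozygous cultures. It fell by 2.77 (SE 0.15, n = 3, adjusted p = 1.9e-06 by limma), and its ratio spread most of the 8, between -3.30 and -2.47. Array 3 gave the lowest of these ratios.

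Nebl and Tcap fell less. Nebl encodes nebulette, a cardiac relative of nebulin that binds thin filaments at the Z-disc. It had signals of 7.05, 6.89 and 6.63 in null cultures, against 8.68, 8.62 and 8.91 in heterozygous cultures. Its mean of -1.88 (SE 0.13, n = 3, adjusted p = 6.0e-06 by limma) passed in that fit and did not pass with an ordinary t statistic per probe (adjusted p = 0.0525), where the other 7 members did. Tcap encodes telethonin, which caps the ends of paired titin molecules in the Z-disc. Its signals were 6.42, 6.36 and 6.02 in null cultures, against 7.65, 7.40 and 7.40 in heterozygous cultures, with a mean ratio of -1.22 (SE 0.09, n = 3, adjusted p = 1.2e-05 by limma). Tcap was in place 784 from the lowest of 19803 genes. Its null signals lay within 1 log2 unit of the lowest signal well above background (5.89, 5.86 and 5.88 on arrays 1 to 3). The same held for Ttn, for Csrp3 and Actn2 on arrays 2 and 3, and for Nebl on array 3.

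Myom1, which bridges titin and myosin in the M-band, had signals of 7.61, 7.50 and 7.42 in null cultures, against 9.48, 9.53 and 9.71 in heterozygous cultures. It fell by 2.07 (SE 0.10, n = 3, adjusted p = 1.1e-06 by limma), a 4.19-fold lower signal. The genotypes did not overlap.

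Myoz2, also called calsarcin 1, links alpha-actinin to the phosphatase calcineurin. Its probe read 6.02, 5.99 and 5.86 in null cultures and 6.08, 6.03 and 5.90 in heterozygous cultures, and it was not tested. No fold is given, because both genotypes were at background.

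**Figure D2:**
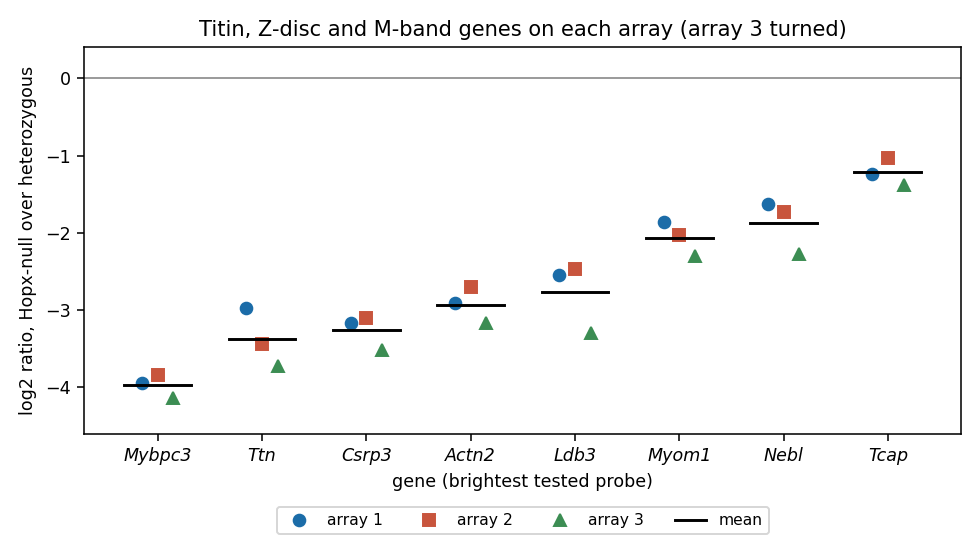
Log2 ratio of null over heterozygous for the 8 tested members (symbols, 1 per array, array 3 turned) with the mean of the 3 arrays (bars). Mybpc3 lies below the other 7 on every array, between -4.14 and -3.84, and Tcap above the other 7, between -1.38 and -1.04.

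Mybpc3 and Tcap stood at the ends of the order on every array. All 3 ratios of Mybpc3 lay below those of Ttn (-3.72 to -2.97), the next in order. Ttn, Csrp3 (-3.52 to -3.10), Actn2 (-3.17 to -2.71) and Ldb3 (-3.30 to -2.47) followed, and neighbours in that order overlapped. Myom1 (-2.30 to -1.87) and Nebl (-2.28 to -1.62) overlapped each other and not Ldb3, and all 3 ratios of Tcap lay above them. Differences between members were not tested. Between pairs of arrays the order of the 8 correlated at a Spearman rho of 0.952 to 0.976, a description over 8 genes that share their arrays. Array 3, the turned one, gave the lowest of the 3 ratios for 8 of 8 members, with a member median of -3.23 on that array, against -2.73 and -2.59 on arrays 1 and 2. Hopx also had its lowest ratio on array 3, and the share of all genes that did is not given here. With a term for the dye, Ttn stood at -3.46, Ldb3 at -2.90 and Tcap at -1.26.

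The order of the members depended on the source of signal. From the scanner software's processed signals, which differ from the values above in several steps at once, the mean log2 ratios of all 8 were further from 0: -4.78 for Ttn, -4.34 for Csrp3, -4.29 for Mybpc3, -4.06 for Actn2, -3.40 for Ldb3, -2.93 for Tcap, -2.85 for Nebl and -2.57 for Myom1. Tcap, the dimmest of the 8 at a mean log2 intensity of 6.87, stood at -2.93 there, against -1.22 above, and Mybpc3, the brightest at 10.28, at -4.29, against -3.97. With the background correction alone left out the order stayed as above, between -4.07 for Mybpc3 and -1.52 for Tcap. In the authors' deposited table the mean over the 3 arrays was -3.69 for Mybpc3, -2.82 for Ttn and -0.88 for Tcap. There Ldb3 (-2.45) lay below Actn2 (-2.27), the reverse of the order above. With the mean of a gene's probes Ttn stood at -2.27, above Csrp3 (-3.26) and Actn2 (-2.93). All 8 were called lower under each of these settings.

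Several probes measured Ttn, Ldb3 and Nebl, and only Ldb3 had 2 probes well above background in both genotypes on all 3 arrays. A second Ttn probe, designed to another RefSeq transcript than the brightest, had ratios of -1.91, -1.87 and -2.51. It was not well above background in null cultures on any array, and its signal was at least 4.20-fold lower there (adjusted p = 3.5e-06 by limma), a bound that is open to dye bias. Another, designed to the same transcript as the brightest, had ratios of -0.86, -1.29 and -1.86 and was well above background in null cultures on 1 array. Both were lower in null cultures on every array, and with null signals at background their sizes are not set against that of the brightest probe. The remaining Ttn probe was at background in both genotypes on all 3 arrays.

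The second Ldb3 probe, designed to another transcript, stood at -0.97 (SE 0.09, n = 3, adjusted p = 4.3e-05 by limma), against -2.77 for the brighter one. Their ratios did not overlap on the arrays (-1.16 to -0.81 against -3.30 to -2.47). From processed signals the same 2 Ldb3 probes stood at -2.30 and -3.40. Ldb3 makes several splice forms, and whether the probes differ by splice form or by signal was not tested. The second Nebl probe was well above background in heterozygous cultures on 1 array only and in null cultures on none, and it was not tested.

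**Figure D3:**
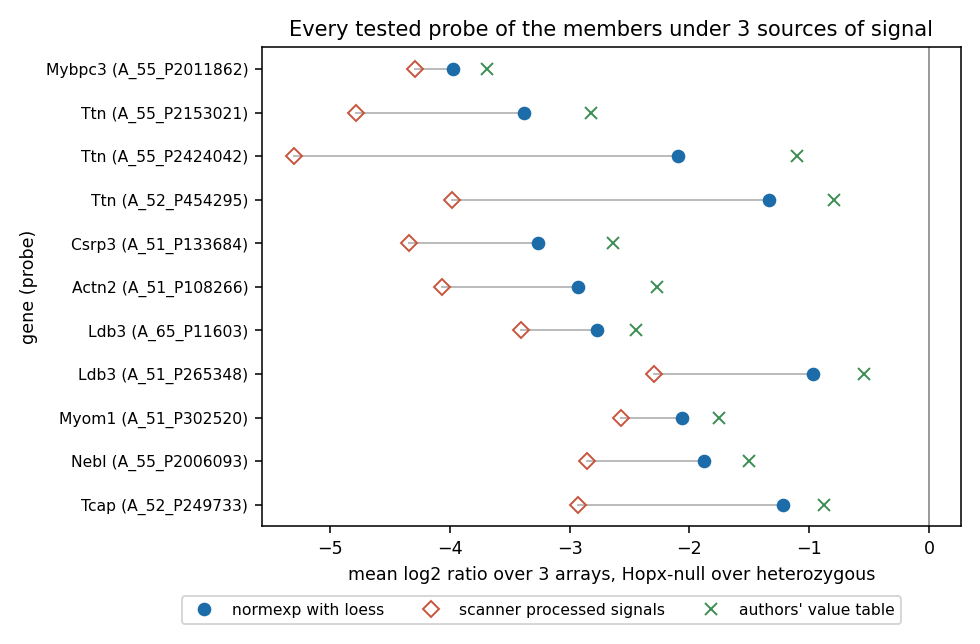
Mean log2 ratio of null over heterozygous over 3 arrays for each of the 11 tested probes of the 8 members, from background correction by normexp with loess (circles), from the scanner's processed signals (diamonds) and from the authors' value table (crosses). Every value lies below 0, and the 2 dimmer Ttn probes, whose null signals were mostly at background, differ most between the 3 sources.

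Left with Cy5 as null on array 3, as labelled, the same probes gave means of -1.22 for Mybpc3, -0.92 for Csrp3, -0.90 for Ttn, -0.82 for Actn2, -0.57 for Ldb3, -0.54 for Myom1, -0.36 for Nebl and -0.30 for Tcap. In that orientation limma called 0 of 8 members, 0 of 8 had an unadjusted p under 0.05, and Hopx stood at -0.83 without a call. None of the companion genes below was called either, and none had an unadjusted p under 0.05. Among all genes limma called 0 of 19368, with 75 at an unadjusted p under 0.05. With array 3 left out, arrays 1 and 2 gave 8 of 8 members lower, with a median of -2.66. Leaving out any replicate in turn moved Ttn between -3.58 and -3.21, Ldb3 between -2.92 and -2.51 and Tcap between -1.31 and -1.13, and 8 of 8 were called each time.

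Other genes of the Z-disc fell more often than they rose, by less than most members. Of 20 companion genes 19 (all but Murc) were matched to a probe by symbol, and 16 were tested. Of these 12 fell, 1 rose and 3 did not pass (median -0.58), against 30.1% of all genes called lower and 30.2% called higher. With an ordinary t statistic 4 were called lower and 0 higher. The 12 include Myot and Myoz1, which were well above background in null cultures on 0 and 2 arrays and so passed the filter through the heterozygous signal. At least 2-fold falls were seen for 4 of the 16. They were Nexn, an actin-binding protein of the Z-disc (-1.33, SE 0.13), Pdlim5, a PDZ and LIM protein that binds alpha-actinin (-1.27, SE 0.12), Des, the muscle intermediate filament desmin (-1.19, SE 0.09), and Xirp1, an actin-binding repeat protein (-1.02, SE 0.09), each with n = 3. Another Pdlim5 probe of similar brightness stood at -0.065 (adjusted p = 0.566 by limma) and a further one at -1.26, and Nexn and Pdlim5 had no call with an ordinary t statistic (adjusted p = 0.0691 and 0.0694). Pdlim3, which also binds alpha-actinin, rose by 0.54 (SE 0.09, adjusted p = 0.0012 by limma), on all 3 arrays (0.46, 0.74 and 0.43). Synpo2l and Myoz3, the skeletal relative of Myoz2, did not pass, at -0.060 (adjusted p = 0.646 by limma) and -0.040 (adjusted p = 0.708 by limma).

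Of 20 genes of the M-band and of titin's binding partners 18 were tested: 13 fell, 2 rose and 3 did not pass, with a median of -0.47, against 30.1% of all genes called lower and 30.2% higher. With an ordinary t statistic 6 were called lower and 0 higher. The largest falls were those of Unc45b, a chaperone of muscle myosin (-1.53, SE 0.08), Mybphl, a myosin-binding protein related to Mybpc3 (-1.24, SE 0.11), Hspb7, a cardiac small heat shock protein (-1.23, SE 0.09), and Obsl1, a cytoskeletal adaptor protein (-1.17, SE 0.09), each with n = 3. A second Obsl1 probe of similar brightness went the other way, with ratios of 0.17, 0.56 and 0.36 (mean 0.37, adjusted p = 0.011 by limma), so that the direction of Obsl1 depends on the probe. Mybphl and Hspb7 were well above background in null cultures on 1 array, so both passed the filter through the heterozygous signal. The 2 that rose were Trim54, a muscle ring finger protein (0.45, SE 0.10), and Sqstm1, an autophagy receptor (0.32, SE 0.09). Trim54 had no call in the authors' deposited table (0.17, adjusted p = 0.237 by limma) or with an ordinary t statistic (adjusted p = 0.113), and Sqstm1 had none without replicate 2 (adjusted p = 0.123 by limma) or with an ordinary t statistic (adjusted p = 0.121). Ankrd2 and Ankrd1, stretch-responsive ankyrin repeat proteins that bind titin, did not pass, at -0.011 (adjusted p = 0.927 by limma) and -0.062 (adjusted p = 0.757 by limma).

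Among genes that form and cap the thin filament ends, Lmod3 and Fhod3 fell most. Lmod3, a leiomodin that nucleates actin filaments in muscle, had ratios of -2.46, -2.52 and -2.39, with a mean of -2.45 (SE 0.08, adjusted p = 2.3e-07 by limma). Fhod3, a cardiac formin needed for sarcomere assembly, fell by 1.88 (SE 0.10, adjusted p = 1.5e-06 by limma). Of 6 genes tested of 8 in that list, 4 fell, 0 rose (0 rose at an unadjusted p under 0.05) and 2 did not pass, with a median of -0.64, against 30.1% of all genes called lower and 30.2% higher. With an ordinary t statistic 2 were called lower. Tmod1, the pointed-end cap tropomodulin, fell by 0.77 (SE 0.10) and Capzb, a subunit of the barbed-end cap, fell by 0.50 (SE 0.09), though Capzb had no call with median centring without loess (-0.10). Capza1 and Capza2, its partner subunits, stood at 0.18 and 0.23 (adjusted p = 0.197 and 0.122 by limma), and 1 of them passed without replicate 3 (Capza1, 0.34) and the other without replicate 2 (Capza2, 0.37). The 3 dimmer Capza1 probes stood at 0.48, -0.76 and -0.077, so that its direction depends on the probe.

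**Figure D4:**
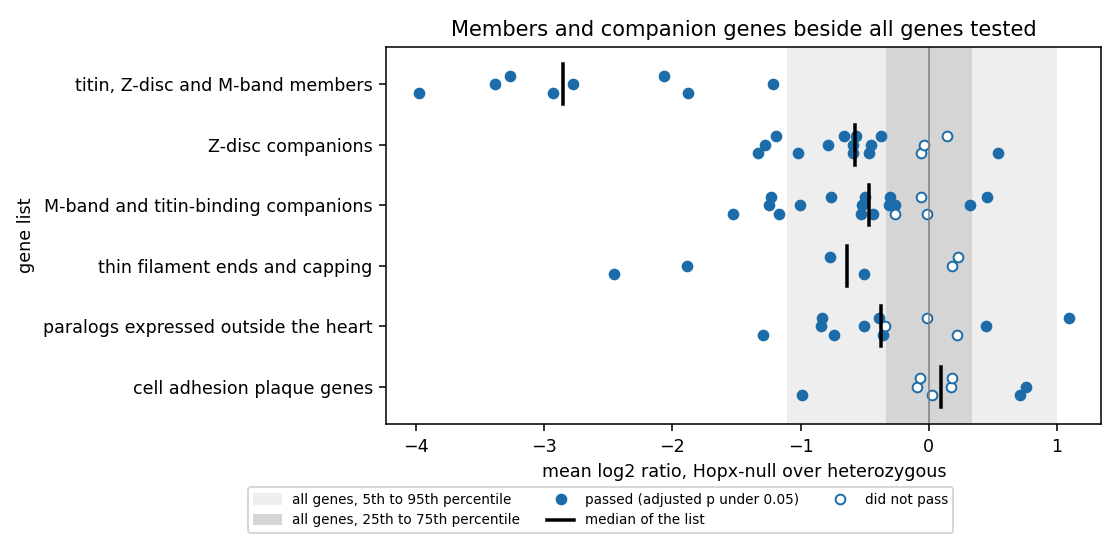
Mean log2 ratio of null over heterozygous for the members and 5 companion lists (circles, filled where adjusted p was under 0.05), with the median of each list (bars) and the spread of all genes tested (grey bands, 5th to 95th and 25th to 75th percentile). All 8 members lie below the 5th percentile of all genes, at -1.10, and most companions lie inside the outer band.

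Relatives of the members were called in both directions. Actn1 and Actn4, the alpha-actinins of non-muscle and smooth muscle cells, stood at -0.35 (SE 0.08) and -0.51 (SE 0.09), both called lower, against -2.93 for Actn2, and neither had a call with median centring without loess (-0.010 and -0.066), which moves the median of all genes to 0.23. Actn3, the alpha-actinin of fast skeletal fibres, rose by 1.09 (SE 0.09, adjusted p = 1.7e-05 by limma), with ratios of 0.97, 1.25 and 1.05. Csrp2, a LIM protein of smooth muscle and heart, fell by 1.30 (SE 0.10), while Csrp1 did not pass (-0.016, adjusted p = 0.902 by limma). Mybpc1, the slow skeletal form of Mybpc3, fell by 0.84 (SE 0.10), and Mybpc2, the fast skeletal form, rose by 0.45 (SE 0.08). Among relatives already counted in the lists above, Myom2, another myomesin, fell by 1.01 (SE 0.11), and Myoz1, another myozenin, fell by 0.59 (SE 0.09). With an ordinary t statistic neither had a call (adjusted p = 0.0743 and 0.0697). Actn1, Actn4 and Mybpc1 had none there either (adjusted p = 0.0642, 0.0788 and 0.0645). Myom3 fell by 0.31 (SE 0.09) and had no call when replicate 3 was left out (adjusted p = 0.0636 by limma). It also had none in the authors' deposited table (-0.16, adjusted p = 0.274 by limma) or with an ordinary t statistic (adjusted p = 0.137). With each channel as its own sample it had no call either (adjusted p = 0.134 by limma).

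In the list of 12 relatives expressed mainly outside the heart, with the other Pdlim genes, Mybph and Lasp1, 7 fell, 2 rose and 3 did not pass, with a median of -0.37, against 30.1% of all genes called lower and 30.2% higher. With an ordinary t statistic 3 were called lower. Mybph, among the 7, was well above background in null cultures on 1 array. Pdlim4 fell by 0.83 (SE 0.11), and Pdlim7 stood at 0.22 (adjusted p = 0.0569 by limma) and passed without replicate 3 (0.27). A second, dimmer Pdlim7 probe rose by 0.52 (adjusted p = 0.0021 by limma), and a further one stood at 0.0036. With the mean of a gene's probes Pdlim7 was called higher (0.24, adjusted p = 0.0395 by limma). Of 8 genes of cell adhesion plaques, structures that anchor actin at the membrane in most cell types, 1 fell, 2 rose and 5 did not pass, with a median of 0.10, against the same shares of all genes. Parva, a parvin, fell by 0.99 (SE 0.12), while Vcl, vinculin, rose by 0.76 (SE 0.09) and Lims1, a LIM adaptor, rose by 0.71 (SE 0.11). None of these 3 had a call with an ordinary t statistic (adjusted p = 0.0846, 0.0594 and 0.0885), and a second, dimmer Vcl probe stood at -0.20 (adjusted p = 0.0636 by limma). The talins Tln1 and Tln2 stood at 0.022 and -0.068 (adjusted p = 0.839 and 0.492 by limma), and a second, dimmer Tln1 probe fell by 0.41 (adjusted p = 0.0087 by limma).

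The 5 genes outside the list whose 3 array ratios lay nearest to those of Ttn, by root mean square difference among 14128 named genes, were Sdc4 (0.226), Ctsh (0.258), Hkdc1 (0.307), Hopx (0.316) and Rassf5 (0.316). Their mean log2 ratios were -3.48, -3.31, -3.17, -3.13 and -3.24. With 3 arrays this is a likeness of size and says nothing of shared function.

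Cardiac muscle markers fell with the members, while markers of the other cell types were called in both directions. Of 10 cardiac muscle markers 9 were tested and 9 fell (median -2.73), against 30.1% of all genes called lower and 30.2% higher. Tnni3, among the 9, was well above background in null cultures on 2 arrays and passed the filter through the heterozygous signal. The summed normalized signal of 8 of the 9, those measured on all 3 arrays, ranged from 19947 to 28334 in null cultures. In heterozygous cultures it ranged from 146381 to 183753. Of 10 skeletal muscle markers 4 were tested, of which 2 fell, 1 rose and 1 did not pass, with a summed signal of 1402 to 1885 in null cultures and 2204 to 3072 in heterozygous cultures. The skeletal regulators Myod1, Myog, Myf5, Myf6 and Pax7 were well above background on all 3 arrays in neither genotype. Of 7 smooth muscle markers 5 were tested (2 rose, 1 fell, 2 did not pass), with sums of 100064 to 109847 in null cultures and 99856 to 103230 in heterozygous cultures. Of 8 fibroblast and feeder markers 6 rose, 1 fell and 1 did not pass (median 0.74), with sums over 6 of them of 46720 to 66371 in null cultures and 21419 to 30753 in heterozygous cultures. For Tnnt2, Col1a1 and Postn the spot of 1 array was left out, and their fits rest on 2 arrays. The part of these cell types in the falls of the members was not tested.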

How the data were processed

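The deposited intensity values of both channels (foreground and local background medians, and processed signals) came from Agilent Feature Extraction, version 11.5.1.1 by the file headers and 8.5.1.1 by the submitters' processing notes. The authors' deposited value table was read as log2 ratios, from its slopes against the scanner ratios. Its normalization and centring are not given in the sources used here, and its column medians were -0.10, -0.11 and 0.07.

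With limma 3.58.1 in R 4.3.3, medians were background-corrected by normexp (offset 50) and log2 ratios normalized by loess, in which control spots and outliers had no weight. Outliers were then dropped, and repeated spots averaged. Channel signals are log2 values after Aquantile normalization between arrays. Probes well above background on all 3 arrays in the null or in the heterozygous channel were kept (24553 of 39429). Ratios were tested against 0 with lmFit and eBayes, adjusted by Benjamini-Hochberg over all kept probes. A gene stands with its brightest kept probe. SEs are moderated. The test was tried on simulated ratios. Scan and slide are the same for all 3 arrays.

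A RefSeq gene table (GRCm38.p6) named 28025 of 39429 probes (71.1%) through unversioned accessions. The array design is on mm9, and no array coordinates are used. Protein sequences were not used here, so that the planned comparison of protein identities was not made. Members, companion lists and settings were chosen with earlier results of these data known. The genes named besides members and Hopx are, in each companion list, up to 4 called genes with the largest change, up to 2 called in the less common direction and up to 2 with the largest adjusted p among those that did not pass, all Actn, Csrp, Mybpc, Myoz and Myom relatives, and the 5 genes nearest to Ttn.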

Additional observations from a re-analysis of the deposited data

How the results depend on the processing

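The array pairs the genotypes, and without that replicate block (each channel its own sample) 8 of 8 members were still called lower, with a median of -2.85. The members kept call and direction in 103 repeats under other settings and lost the call in 9, which were all 8 members with replicate 3 as labelled and Nebl with an ordinary t statistic. The median of the members was -0.70 with replicate 3 as labelled, -3.73 from processed signals, -2.17 over the mean of a gene's probes and -2.36 in the authors' table. Leaving out a replicate gave -2.98 to -2.66. With replicate 3 as labelled 0 members and 0 companions were called in either direction. Median centring without loess put the median of all genes at 0.23, against 0.0034, with single genes moving by different amounts, and called 3007 genes lower and 8540 higher, against 5966 and 5977, and called 2 Z-disc, 2 thin filament, 4 relative and 6 adhesion genes higher. Without a filter on dim probes 2 Z-disc genes rose. An ordinary t statistic called 4 Z-disc, 6 M-band, 2 thin filament, 3 relative and 0 adhesion genes lower, and 0 Z-disc, 0 M-band and 0 adhesion genes higher, with 2032 of all genes lower and 1964 higher. The 2 M-band genes that rose became 1 with no replicate block, 1 in the authors' table (3910 of all genes higher) and 1 to 2 when a replicate was left out. Thin filament genes that rose numbered 1 with a dye term and 0 to 1 when a replicate was left out. The cause was not tested.

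No member reversed. The other named genes that reversed had not passed in the fit above, except Myom3, at 0.019 with replicate 3 as labelled. In that setting Myoz3 was 0.051, Synpo2l 0.15, Ankrd2 0.085, Ankrd1 0.35, Capza2 -0.13, Csrp1 0.14 and Tln1 -0.019. Median centring gave Synpo2l 0.39, Ankrd2 0.0041, Ankrd1 0.35, Csrp1 0.41 and Tln2 0.23. Among these, Synpo2l and Csrp1 were called higher there (adjusted p = 0.0187 and 0.0259 by limma). Processed signals gave Ankrd2 0.17 and Tln1 -0.016, and no background correction gave Ankrd2 0.037. Myoz3 did not reverse with processed signals and was called lower (-0.40, adjusted p = 0.04 by limma). The mean of a gene's probes gave Capza1 -0.043, Tln1 -0.19 and Tln2 0.0069, and the authors' table gave Synpo2l 0.020. Leaving out a replicate put Myoz3 between -0.080 and 0.0081, Synpo2l between -0.17 and 0.068, Ankrd2 between -0.084 and 0.056, Ankrd1 between -0.22 and 0.22 and Csrp1 between -0.092 and 0.091.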

Other observations

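Nebulin (Neb), the giant thin filament protein of skeletal muscle and a relative of nebulette, was not tested, and it is given here after its values were seen. One of its 2 probes was well above background in null cultures on 2 arrays and in heterozygous cultures on none, with normalized log2 signals of 6.28, 6.37 and 6.37 in null cultures, against 5.98, 6.18 and 6.07 in heterozygous cultures. The other probe was well above background in null cultures on 1 array and in heterozygous cultures on none, with ratios of 0.015, -0.053 and -0.038.

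Ankrd1, a titin-binding protein induced by stretch, was bright in both genotypes, and its ratio changed sign between arrays, at 0.18, 0.26 and -0.62 on arrays 1 to 3. Without the turned array 3 it stood at 0.22, without a call (adjusted p = 0.0698 by limma). With a term for the dye it was called lower (-0.20, adjusted p = 0.0493 by limma).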
